A study of Caenorhabditis elegans with 12 samples.

Results

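The transcripts described here belong to 155 *C. elegans* genes that have no gene name of their own and that stood at a higher level in 7-day-old (D7) than in 1-day-old (D1) wild-type adults. They were taken from a table of 46925 genes, of which 17284 carry only a sequence-style symbol such as *F08B12.4*. A gene was taken if its mean level in wild type at D7 was at least 5 TPM (a relative transcript level corrected for length) and at least 4 times its mean at D1, with 0.5 TPM added to both. Of 2847 sequence-named genes at 5 TPM or more at D7, 162 met the ratio. *F55G11.4* and *C17H12.8* were left out by name, and 5 genes were left out because in the libraries labelled sams1 they stood at 5 TPM or more and at least 8 times above wild type on both days. The genes were thus chosen by their wild-type levels, which are given below as a description with no test.

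A sequence-style symbol gives the clone on which a worm gene was mapped and a number given to the gene on that clone. Genes usually receive a name once a mutant phenotype, a protein family or a clear relative has been described, so this set gathers transcripts about which little is recorded. An adult hermaphrodite uses up its own sperm early in adulthood and then goes on living as a largely post-reproductive animal. RNA of a whole adult is a mixture of germ line, oocytes and embryos with muscle, intestine, skin and neurons, and the mixture itself shifts with age.

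RNA of whole animals was measured in 12 libraries, with 3 libraries, numbered 1, 3 and 5, in each of 4 groups. These were wild type and sams1, each at D1 and at D7, all on HT115 bacteria. *sams-1* encodes an S-adenosylmethionine synthase, an enzyme that makes the main methyl donor of the cell. The labels of the sams1 libraries give a wild-type genotype with RNAi as treatment, and those of wild type give control as treatment, whereas the study describes *sams-1(lof)* mutants, so the groups are called by their labels. The wild-type libraries decide which genes are members, and the change with age in the 6 sams1 libraries is the only contrast tested.

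Total expected counts per library were between 3939023 and 7568388. The *sams-1* transcript itself went against the label, with 90.7 to 105 TPM in the libraries labelled sams1 at D1 against 51.4 to 95.7 TPM in wild type, and 18.2 to 35.2 against 6.58 to 10.1 TPM at D7. *fat-7*, a lipid desaturase gene, stood at 104 to 357 TPM in the libraries labelled sams1 at D1 against 6.43 to 19.7 TPM in wild type. Replicate 1 of the D1 libraries labelled sams1 stood apart from replicates 3 and 5 in marker genes. Its 15 oocyte genes summed to 4789 TPM, where the lowest library of that group had 496 TPM, and its 10 larval molt genes summed to 57.3 TPM, where the highest had 1479 TPM. In wild type at D1 the 14 sperm genes ranged from 96.5 to 2336 TPM. In bulk RNA, fewer cells of a type and less RNA per cell cannot be told apart.

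The members comprised 142 protein-coding genes, 11 genes annotated as ncRNA, 1 snRNA and 1 snoRNA. Many stood at low levels, with a median wild-type D7 mean of 17.8 TPM, and 25 of the 155 reached 100 TPM. The median wild-type ratio of D7 to D1 was 8.11, with quartiles at 5.04 and 14.1. In 139 of the 155 members every wild-type D7 library lay above every D1 library, where 35.4% of all genes at 5 TPM or more did so. For 17 members the 3 wild-type D7 libraries together held fewer than 10 expected counts. These 17 include 12 of the 13 non-coding members, and the longest of their transcripts has 280 bases. *F43G6.13*, with a transcript of 148 bases, had the highest ratio of all, 126, with 63.3, 125 and 0 TPM at wild-type D7, and those levels rest on 2.93 counts in all. *C18A3.22* reached a mean of 34.4 TPM on 1 count in 1 library. Very short transcripts thus met the rule on a few reads, and the descriptions that follow concern mainly the other 138 members, a limit chosen after the data were seen. Of those 138, 137 had wild-type D7 libraries all above D1, and their median ratio was 6.87.

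Added together, the 155 members took up a small part of the transcriptome. In wild type they made up 0.210%, 0.120% and 0.136% of all TPM in D1 replicates 1, 3 and 5, and 1.25%, 1.19% and 1.25% at D7. In the libraries labelled sams1 they made up 0.837%, 0.746% and 0.756% at D1 and 3.69%, 4.26% and 3.57% at D7. The D7 libraries of each genotype lay above its D1 libraries, and the sams1 libraries lay above wild type at each age. The rise in wild type was set by the rule, which also favoured genes low in young wild type. These sums are thus a description with no test. *F08B12.4* alone gave 35.1% to 40.1% of the members' TPM at D7 in the libraries labelled sams1. Without it the share was 0.507% to 0.641% at D1 and 2.21% to 2.77% at D7 in those libraries, again without overlap.

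**Figure D1:**
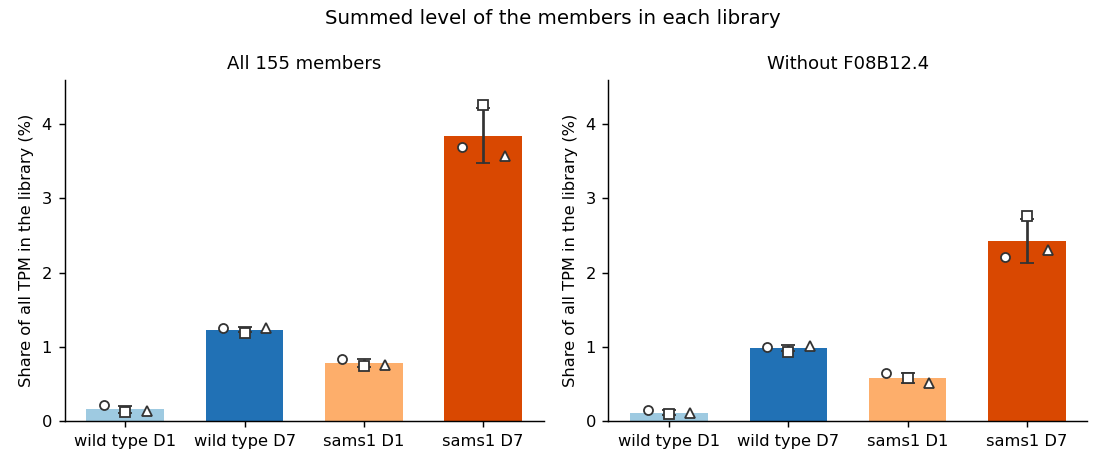
Summed TPM of the members as a percent of all TPM in each library, for all 155 members (left) and without F08B12.4 (right). Bars are means of 3 libraries, lines are SD, and circles, squares and triangles are replicates 1, 3 and 5. In the left panel the sams1 D7 libraries sit between 3.57% and 4.26%, above the 1.19% to 1.25% of wild type at D7.

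*F08B12.4*, at 11407054 to 11407732 of chromosome X (WBcel235, minus strand), was the most abundant member. The annotation in the study's tables places its product in the nucleus and its expression in the pharyngeal metacorpus, body wall muscle and tail. In wild type it stood at 631.5, 318 and 350 TPM at D1 and at 2440.1, 2576 and 2415 TPM at D7. The sams1 libraries showed it at 1953, 1607 and 2484 TPM at D1 and at 14834, 14982 and 12631 TPM at D7. Young sams1 libraries thus overlapped old wild type, and old sams1 libraries lay above all others. With age it rose in the libraries labelled sams1 (log2 fold change 2.24, SE 0.26, adjusted p = 0.0017, edgeR's quasi-likelihood test). The call was lost without D1 replicate 3, D7 replicate 1 or D7 replicate 5, where the adjusted p reached 0.011.

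*F53A9.8*, also on chromosome X, behaved alike in the wild type, with 54.97, 93.3 and 113 TPM at D1 and 740.0, 1044 and 925 TPM at D7. Under the sams1 label it went from 140.1, 398 and 314 TPM to 3009, 3392 and 2452 TPM, and the ages did not overlap. It rose there (log2 fold change 3.16, SE 0.44, adjusted p = 0.0027, edgeR), a call lost when any one D7 library was left out (adjusted p up to 0.014).

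*T26H5.9*, on chromosome V from 15444916 to 15445420, showed one of the steepest changes among abundant members. Its levels in wild type were 35.0, 15.2 and 11.1 TPM at D1 and 246, 415 and 348 TPM at D7. The sams1 libraries had 18.8, 83.1 and 44.3 TPM at D1 and 1003, 3073 and 1165 TPM at D7. The old sams1 libraries were therefore all above the old wild-type ones, while the young libraries of both genotypes overlapped. It rose with age there (log2 fold change 4.94, SE 0.72, adjusted p = 0.0033, edgeR), and the call was lost without D1 replicate 5 or any one D7 library (adjusted p up to 0.013). Its neighbour *T26H5.10*, on the opposite strand, rose by 4.16 on the log2 scale (SE 0.57, adjusted p = 0.0026, edgeR), from 0.960, 4.22 and 2.5 TPM to 49.7, 71.7 and 41.5 TPM. With 2, 8 and 5 counts in the D1 libraries it passed the filter on low counts through its D7 libraries alone, and so had to differ. Its call was lost without any one of the D7 libraries (adjusted p up to 0.013).

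*E04F6.8* and *E04F6.9* lie side by side on chromosome II, on the minus strand, from 7210751 to 7212159. *E04F6.8* stood at 88.5, 17.2 and 27 TPM in wild type at D1 and at 720, 496 and 693 TPM at D7. Under the sams1 label it stood at 321, 103 and 85.2 TPM at D1 and at 1145, 1464 and 1390 TPM at D7. It rose there (log2 fold change 2.80, SE 0.48, adjusted p = 0.0056, edgeR), and D1 replicate 1, the highest young library, was the only one whose omission left the call (adjusted p up to 0.028 without any of the others). For *E04F6.9* the corresponding means were 30.9 and 257 TPM in wild type and 147 and 489 TPM in the libraries labelled sams1. Its log2 fold change of 1.54 (SE 0.32) had an adjusted p of 0.012, just past the threshold.

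**Figure D2:**
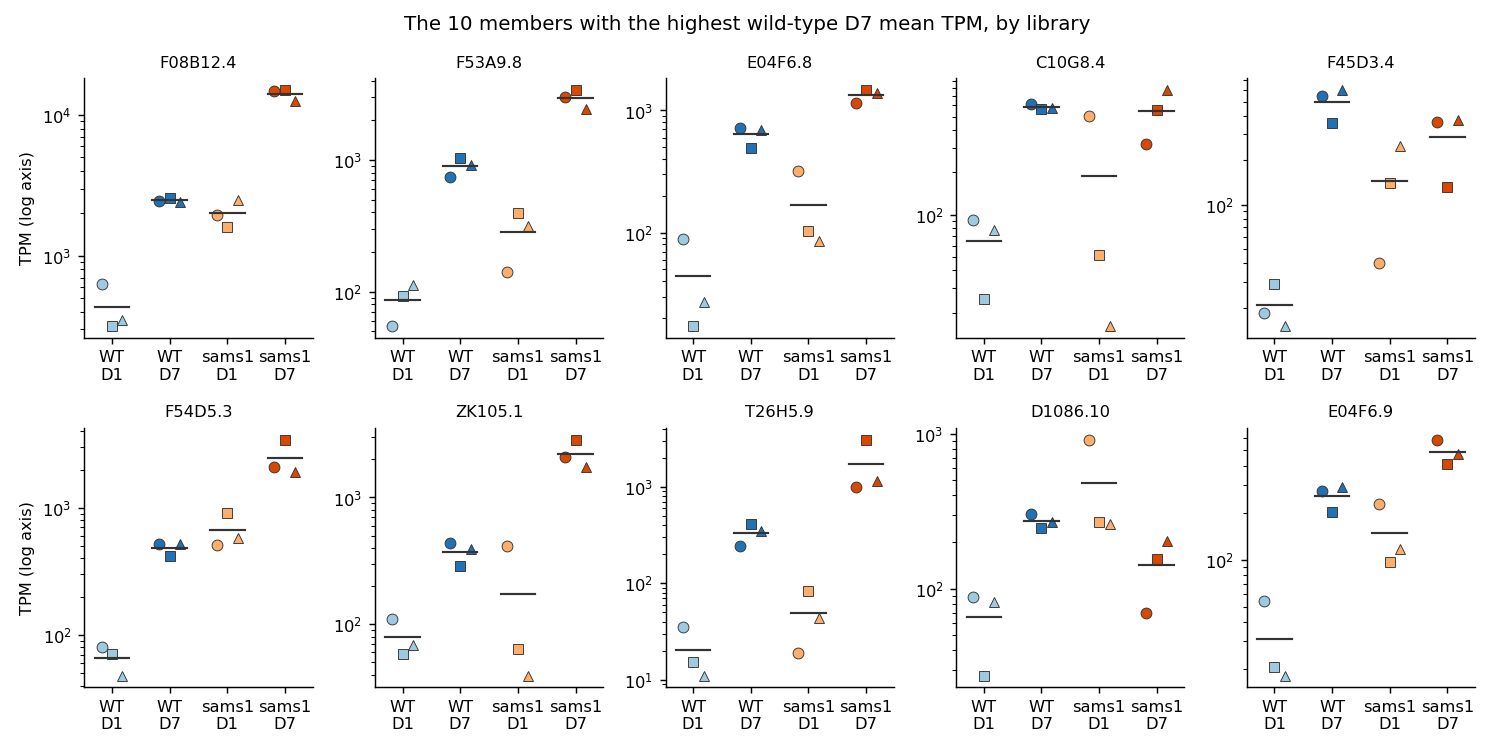
TPM on a log axis in each of the 12 libraries for the 10 members with the highest wild-type D7 mean, with circles, squares and triangles for replicates 1, 3 and 5 and lines for group means. In F08B12.4 the sams1 D7 libraries reach 12631 to 14982 TPM, whereas in D1086.10 the sams1 D7 libraries, 69.1 to 203 TPM, lie below the sams1 D1 libraries.

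The other members among the 10 with the highest mean in old wild type did not pass the test in the libraries labelled sams1. *F54D5.3*, annotated in the study's tables as enriched in intestine and pharyngeal muscle and as responsive to several stresses, stood at 79.9, 70.7 and 47.9 TPM in wild type at D1 and at 519, 415 and 518 TPM at D7. In the libraries labelled sams1 it stood at 512, 906 and 575 TPM at D1 and at 2100.1, 3417 and 1924 TPM at D7, so that young sams1 libraries reached the level of old wild type. The ages did not overlap, and its log2 fold change of 1.67 (SE 0.37) had an adjusted p of 0.015 (edgeR).

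*ZK105.1* and *C10G8.4* varied widely among the young sams1 libraries, with replicate 1, the library that stood apart, the highest. *ZK105.1* stood at 414, 63.97 and 39.3 TPM in sams1 D1 replicates 1, 3 and 5 and at 2087, 2846 and 1730 TPM at D7. *C10G8.4* stood at 501, 51.6 and 16 TPM and at 317, 559 and 771 TPM. In *C10G8.4* replicate 1 overlapped the old libraries, and in *ZK105.1* the ages did not overlap. With all 6 libraries the log2 fold change of *ZK105.1* was 3.54, with an SE of 0.83 and an adjusted p of 0.020 (edgeR), and it was 5.08 (adjusted p = 5.17e-05) without replicate 1. For *C10G8.4* it was 1.40 (SE 1.00, adjusted p = 0.337) with all 6 libraries and 3.68 (adjusted p = 0.0008) without replicate 1. Whether the oocyte content of that library plays a part in these values was not tested.

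*F45D3.4* stood at 18.5, 29.1 and 15.1 TPM in wild type at D1 and at 545, 356 and 596 TPM at D7. In the libraries labelled sams1 the ages overlapped, with 40.1, 140.1 and 251 TPM at D1 and 361, 131 and 374 TPM at D7. Its change there did not pass the test (log2 fold change 0.72, SE 0.65, adjusted p = 0.446, edgeR). It was among the abundant members with a large wild-type ratio, 23.4, beside a ratio of 2.00 in the libraries labelled sams1.

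Several members were almost absent from young wild-type animals. *C50F7.5*, on chromosome IV from 7726719 to 7727639, stood at 0.350, 0.200 and 0.520 TPM in wild type at D1 and at 67.7, 75.9 and 66.0 TPM at D7. In the libraries labelled sams1 it stood at 1.29, 1.97 and 2.02 TPM at D1 and at 60.5, 14.7 and 119.4 TPM at D7, without overlap. It rose there (log2 fold change 4.95, SE 0.77, adjusted p = 0.0039, edgeR), with a call that held only without D1 replicate 1 or D7 replicate 3 (adjusted p up to 0.020 without any of the others). With 8, 11 and 12 counts in the D1 libraries labelled sams1, it also needed D7 libraries to pass the filter on low counts.

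*F56D6.8* had no count in any of the D1 libraries of either genotype. Its D7 levels were 91.8, 27.2 and 47.3 TPM in wild type and 14.0, 16.17 and 32.9 TPM in the libraries labelled sams1. Against the limit set by 3 counts over the D1 group, it was at least 50.4-fold higher at D7 in wild type and at least 25.7-fold higher in the libraries labelled sams1. In the libraries labelled sams1 it entered the test through its D7 libraries alone, with 12, 13 and 35 counts, and so had to differ. That call (adjusted p = 0.0057, edgeR) was lost without any library other than D1 replicate 1 (adjusted p up to 0.030).

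*C06H5.14* and *H25K10.4* were likewise without a count at D1 in all 6 libraries. Over the D7 libraries *C06H5.14* had 11, 3 and 12 counts in wild type and 6, 6 and 7 in those labelled sams1, and *H25K10.4* had 25, 20 and 41 against 11, 1 and 7. Both were at least 8.13-fold higher at D7 in the libraries labelled sams1 and neither had enough counts to be tested. *F48C1.9* went from 1 count in wild type at D1 to 92 at D7, a ratio of 81.8 with a 95% counting interval from 14.3 to 3264. Its levels in the libraries labelled sams1 were 0, 7.26 and 1.73 TPM at D1 and 40.8, 24.4 and 36.9 TPM at D7, with an adjusted p of 0.028. *F15B9.6* had 2 counts in wild type at D1 and 575 at D7 and rose in the libraries labelled sams1 from 3.82, 6.45 and 8.05 TPM to 26.8, 22.2 and 29.6 TPM (log2 fold change 1.85, SE 0.36, adjusted p = 0.0090, edgeR). Its call was lost without any library other than D1 replicate 1 (adjusted p up to 0.044). The counting intervals and limits cover counting error only. The other members with the largest ratios, *D1054.23*, *F08G2.9*, *C18A3.22* and *F43G6.13*, are non-coding RNAs with 1 to 7.81 counts at wild-type D7.

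Across the set, the change with age was tested in the 6 libraries labelled sams1 alone, in a fit to all genes with enough counts. A call needed both a change of at least 2-fold and an adjusted p below 0.01. Of the 155 members 124 were tested, 42 were called higher and 1 was called lower at D7. Over all 13745 genes tested, 1.67% were called higher and 7.96% were called lower. Among the members 33.9% of those tested, or 27.1% of the 155, were called higher. Of the 154 genes with a hyphenated name that met the same wild-type level and ratio, 141 were tested and 34% were called higher. None of them was left out for a high level in the libraries labelled sams1. The difference between the members and these named genes was not tested. The median log2 fold change was 1.69 for members, 1.51 for those named genes and 0.04 over all genes tested. A member low at D1 passes the filter on low counts through its D7 libraries alone, and so had to differ: 12 of the tested members had under 10 counts in every D1 library, 8 of them called higher. Of the other tested members, 34 were called higher. The filter's own limit scales with library size, so 10 counts only approximates it. Some of the 34 also needed D7 libraries to pass. *W02A2.9*, for example, had 10, 9 and 10 counts at D1, and *T07G12.5* had 6, 5 and 12. In 114 tested members the fitted change was positive and in 10 it was negative, and 103 of the 155 had all sams1 D7 libraries above D1, where 35.2% of all genes at 5 TPM or more did so. In 2 members all D7 libraries lay below D1, where 7.99% of those genes did so.

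Calls came from every range of levels. Of the 25 members at 100 TPM or more in old wild type 24 were tested and 7 were called higher. For the 92 members between 10 and 100 TPM these numbers were 76 and 26, and for the 38 below 10 TPM they were 24 and 9. Over all levels, 1.67% of all genes tested were called higher, and the shares of all genes in these ranges were not counted. The number called depended on single libraries. It was 65 higher and 4 lower without D1 replicate 1, the library that stood apart, and then 8.95% of all genes were called higher. It was 13 without D1 replicate 3 and 18 without D1 replicate 5, when 0.395% and 0.671% of all genes were called higher. Without D7 replicates 1, 3 and 5 it was 11, 16 and 8, beside 0.349%, 0.466% and 0.204% of all genes, so the number of members moved with that of all genes, and no member was called lower without D7 replicate 3 (edgeR). When the libraries were scaled on 25 genes of body wall muscle in place of all genes, edgeR called 109 members higher, but it also moved the median of all genes by 1.69 on the log2 scale and turned the split of calls over all genes from 229 higher and 1094 lower to 7893 higher and 410 lower. Relative to all genes, the members' median lay higher by 1.65 in the main fit and by 1.66 under that scaling.

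**Figure D3:**
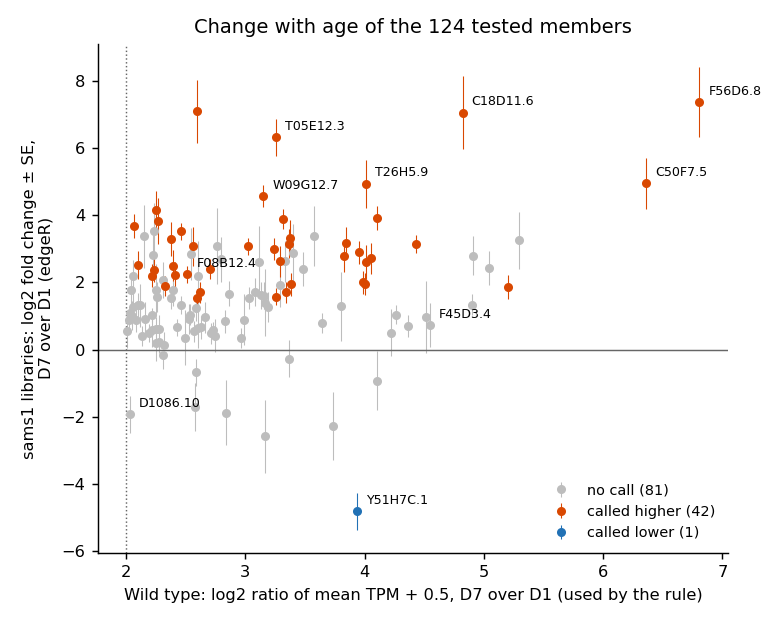
Change with age of the 124 tested members, with the log2 ratio of wild-type means (TPM + 0.5) on the x axis, which the rule used, and the edgeR log2 fold change in the libraries labelled sams1 with its SE on the y axis. Orange points are the 42 members called higher, the blue point is Y51H7C.1, called lower, grey points were not called, and the dotted line is the rule's ratio of 4.

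The largest calls included several low-level genes. *Y71F9AL.7* and *C18D11.6* passed the filter on low counts through their D7 libraries alone, and so had to differ. *Y71F9AL.7* had no count in the young libraries labelled sams1, although it stood at 2.43, 4.31 and 0 TPM in young wild type. At D7 it stood at 8.91, 6.08 and 5.98 TPM in the libraries labelled sams1, at least 20.1-fold higher (adjusted p = 0.0046, edgeR), and at 12.0, 22.1 and 14.2 TPM in wild type. *C18D11.6* had 1 count at D1 and 170 at D7 in the libraries labelled sams1, a ratio of 218 with a counting interval from 38.6 to 8669 (adjusted p = 0.0039, edgeR). In wild type it stood at 0.720, 2.40 and 0 TPM and at 48.0, 10.8 and 70.4 TPM, so both genotypes were near 0 when young. The call of *Y71F9AL.7* was lost without any library other than D1 replicate 1, and that of *C18D11.6* without D1 replicates 3 or 5 or D7 replicates 1 or 5 (adjusted p up to 0.026 and 0.021).

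Among members with more counts, *T05E12.3* on chromosome V, from 17076874 to 17077989, had the largest sams1 ratio. It stood at 4.00, 4.05 and 0.730 TPM in the libraries labelled sams1 at D1 and at 268, 321 and 229 TPM at D7. In wild type it stood at 1.89, 6.65 and 4.76 TPM and at 35.3, 74.7 and 30.1 TPM. Young libraries of both genotypes overlapped, while each old sams1 library lay above each old wild-type one. *T05E12.3* rose with age in the libraries labelled sams1 (log2 fold change 6.32, SE 0.55, adjusted p = 0.0010, edgeR). With 23, 21 and 4 counts in the D1 libraries of that label, it too needed D7 libraries to pass the filter on low counts.

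*W09G12.7*, on chromosome IV, rose from 9.24, 12.2 and 13.8 TPM to 244, 392 and 348 TPM in the libraries labelled sams1 (log2 fold change 4.57, SE 0.33, adjusted p = 0.0010, edgeR). Its wild-type levels were 1.31, 0.870 and 2.10 TPM at D1 and 18.7, 16.36 and 14.7 TPM at D7, so that the sams1 libraries lay above wild type at both ages. *F10E9.12*, on chromosome III, rose from 9.19, 4.98 and 8.09 TPM to 99.5, 177 and 114 TPM (log2 fold change 3.91, SE 0.36, adjusted p = 0.0010, edgeR). *ZC239.22*, on chromosome II, rose from 6.31, 6.37 and 9.44 TPM to 125, 135 and 125 TPM (log2 fold change 3.89, SE 0.30, adjusted p = 0.0010, edgeR), and its old wild-type libraries had 10.6, 26.99 and 23.4 TPM. In all 3 of these genes the 4 groups fell in one order without overlap, from young wild type over young sams1 and old wild type to old sams1.

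Of the 42 members called higher, 8 kept their call when each of the 6 libraries was left out in turn. Over all genes the number called higher, 229, also moved, to 29 without D7 replicate 5 and 1280 without D1 replicate 1. How many of all genes kept their call throughout was not counted. The 8 members are *T05E12.3*, *W09G12.7*, *F10E9.12* and *ZC239.22*, and, named here after their values were seen, *T12D8.5*, *Y47H10A.5*, *C49G7.12* and *F19C7.2*. *T12D8.5* went from 69.2 to 1052 TPM on average in the libraries labelled sams1 (log2 fold change 3.68). It shares exon bases with another gene, so its reads could be ambiguous, although its expected counts were whole in all 12 libraries. *Y47H10A.5* went from 35.4 to 366 TPM (log2 fold change 3.15). Over all members called higher, 38 of 42 share no exon bases with another gene.

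**Figure D4:**
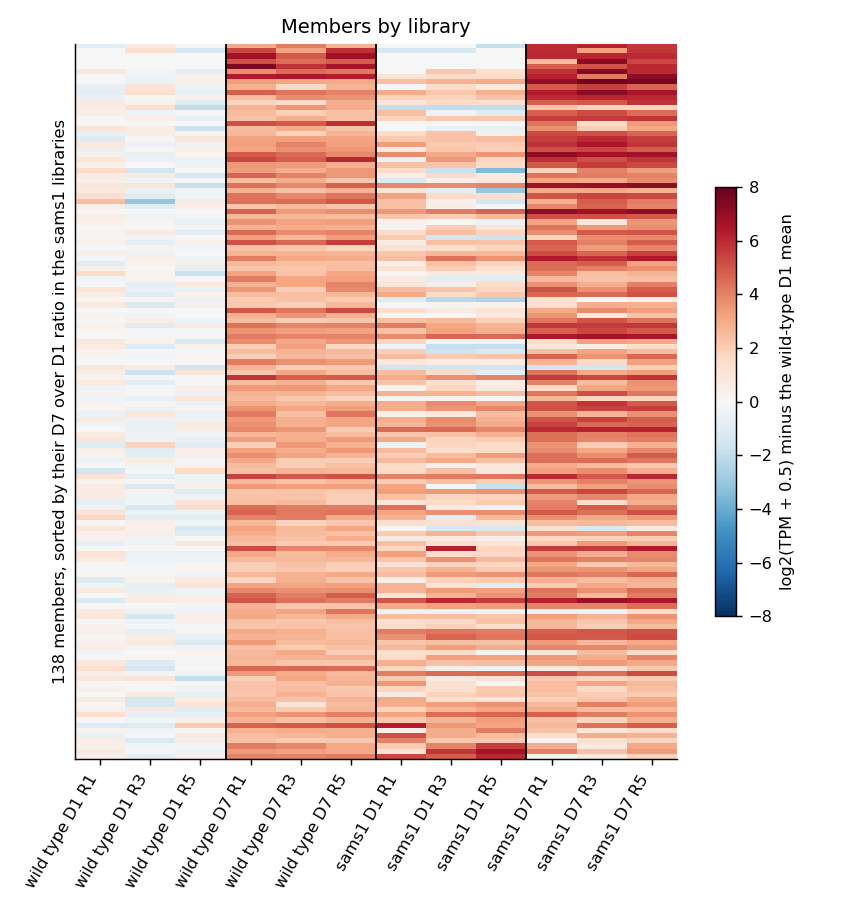
The 138 members with at least 10 counts at wild-type D7 (rows, sorted by their D7 over D1 ratio in the libraries labelled sams1) in the 12 libraries (columns), coloured by log2(TPM + 0.5) minus the mean of that value in wild type at D1. In 103 members all sams1 D7 libraries lie above the sams1 D1 libraries, and the rows at the bottom hold the 2 members with the opposite order.

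A few members ran the other way with age in the libraries labelled sams1, and *Y51H7C.1* was the one called lower. This gene lies on chromosome II from 1467727 to 1469630 on the plus strand. It stood at 2.15, 0.700 and 2.10 TPM in wild type at D1 and at 31.1, 30.6 and 35.4 TPM at D7. Among the sams1 libraries it stood at 80.1, 56.98 and 134 TPM at D1 and at 1.82, 2.88 and 6.42 TPM at D7. Young sams1 libraries were thus all above old wild type, and old sams1 libraries overlapped young wild type. It fell with age there (log2 fold change -4.81, SE 0.55, adjusted p = 0.0015, edgeR), and the call was lost only without D7 replicate 3 (adjusted p = 0.012). Its expected counts, such as 847.9 in D1 replicate 1 labelled sams1, are not whole, as such estimates are where reads match more than 1 place, so its level is uncertain.

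*D1086.10* belongs to the largest group of neighbouring members, 4 genes on chromosome V between 14082753 and 14098668. The study's tables annotate it as enriched in cephalic sheath cells and hypodermis and as responsive to several stresses. Its levels in wild type were 88.7, 27.5 and 81.8 TPM at D1 and 301, 246 and 267 TPM at D7. The sams1 libraries had 909, 267 and 261 TPM at D1 and 69.1, 155 and 203 TPM at D7, with all old libraries below all young ones. The log2 fold change of -1.93 (SE 0.56) had an adjusted p of 0.042 with edgeR and of 0.0033 with DESeq2. Without D1 replicate 1, the highest of the young libraries, it was -1.23 (adjusted p = 0.024, edgeR).

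The neighbours of *D1086.10* did not share 1 pattern. *D1086.7* stood at 114.5, 25.5 and 18.6 TPM in the libraries labelled sams1 at D1 and at 7.47, 25.8 and 21.2 TPM at D7, so that the high mean of the young group came from replicate 1. Its fitted change did not pass the test (log2 fold change -1.71, SE 0.71, adjusted p = 0.126, edgeR), and was -0.62 without replicate 1, and 0.16 when scaled on muscle genes. *D1086.2*, on the other strand, stood at 8.72, 3.89 and 0.460 TPM at D1 and at 30.2, 12.43 and 15.5 TPM at D7 (adjusted p = 0.131), and shares exon bases with another gene. *D1086.19* had no count in 5 of the 6 libraries labelled sams1 and 6 counts in D7 replicate 5.

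A further pair of neighbours, *Y65B4BM.3* and *Y65B4BL.1* on chromosome I from 530969 to 533084, was described after its values were seen. The annotated genes share exon bases, so reads could be split between them. *Y65B4BM.3* stood at 4.6, 118.8 and 236 TPM in sams1 D1 replicates 1, 3 and 5 and at 37, 11.2 and 24.4 TPM at D7. Here replicates 3 and 5 were the high young libraries, as they were for the larval molt list, and a part of that list in the values was not tested. Without replicate 1 both genes were called lower, together with *Y51H7C.1* and *C09F9.2*, in a fit that called 17.7% of all genes lower.

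**Figure D5:**
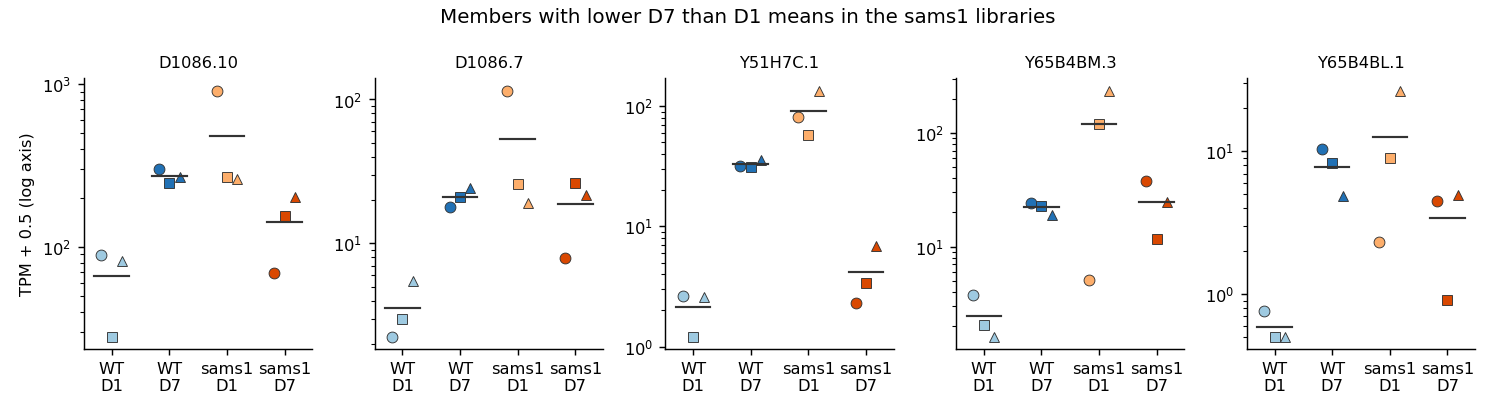
TPM + 0.5 on a log axis in each library for 5 members whose mean was lower at D7 than at D1 in the libraries labelled sams1, with circles, squares and triangles for replicates 1, 3 and 5 and lines for group means. Y51H7C.1 falls from 56.98 to 134 TPM at D1 to 1.82 to 6.42 TPM at D7, while D1086.7 and Y65B4BM.3 overlap between ages.

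Some further members, described after their values were seen, show how far the set was from uniform. *C41G11.1*, on chromosome X, stood at 3.30, 0.120 and 1.11 TPM in young and at 37.96, 37.7 and 35.1 TPM in old wild type, and stayed between 0.720 and 6.56 TPM in all 6 libraries labelled sams1, whose ages overlapped (adjusted p = 0.623, edgeR). It shares exon bases with *cyp-43A1*, so its reads could be ambiguous, although its expected counts were whole in all 12 libraries. *Y53F4B.45*, the only non-coding member with enough counts to be tested, stood at 10.3, 6.75 and 9.74 TPM and at 35.6, 57.3 and 47.7 TPM in wild type. It rose in the libraries labelled sams1 from 50.1, 38.1 and 44.4 TPM to 237, 113 and 225 TPM (log2 fold change 1.89, SE 0.31, adjusted p = 0.0046, edgeR). The call was lost without D1 replicates 3 or 5 or D7 replicates 1 or 5 (adjusted p up to 0.027, edgeR). *Y53F4B.45* overlaps the protein-coding gene *trip-4* but shares no exon bases with it. Whether reads from that gene add to its counts was not tested.

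Such differences among the young libraries labelled sams1 were found in other members too. Among the 138 members with enough counts, replicate 1 was at least 2 times above both other young libraries in 29. It was at least 2 times below both in 18. How many of all genes differ in this way was not counted, so these numbers are not read as particular to the members. The widest gap above was in *T22B7.7*, whose level in replicate 1 was 13.9 times that of the next library after adding 0.5 TPM, and the widest gap below was in *Y65B4BM.3*.

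Levels in the libraries labelled sams1 are set beside wild type as a description, because the same wild-type libraries chose the members and a gene low in young wild type was favoured. At D1 the median ratio of sams1 to wild type was 3.31 for the members and 0.596 over all genes at 5 TPM or more. In 84 of the 155 members the young sams1 libraries were all above young wild type, where 22.6% of all those genes were, and in 1, where 52.5% were, they were all below. At D7 the median ratio was 1.28 for members and 0.689 over all genes. All D7 libraries labelled sams1 lay above old wild type in 60 members, where 23% of genes did so, and below in 17, where 54.9% did so. Named genes that met the same wild-type level and ratio had median ratios of 3.69 at D1 and 1.24 at D7. Genes high in the libraries labelled sams1 on both days were not left out of these named genes, as they were from the members.

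In 10 of the 155 members the young libraries labelled sams1 lay all above old wild type. All genes at 5 TPM or more showed this order more often, in 19.6%. Among the 10 members *F54E2.1*, annotated by the study as a membrane raft protein, had the highest mean in the libraries labelled sams1. It stood at 13.5, 6.41 and 11.2 TPM in young wild type and at 84.8, 73.9 and 55.9 TPM in old wild type. In the libraries labelled sams1 it stood at 176, 205 and 183 TPM when young and at 280.3, 329 and 378 TPM when old. The 4 groups did not overlap, and the change with age in the libraries labelled sams1 did not pass the test (log2 fold change 0.58, SE 0.23, adjusted p = 0.118, edgeR). *F53B2.8* and *C08E8.4* had the same order of groups, with means of 7.91, 49.6, 152 and 263 TPM and of 1.23, 35.1, 72.9 and 140.3 TPM in young and old wild type and young and old sams1. *K06G5.1* and *C01B10.6*, also annotated in the study's tables as responsive to several stresses, were not above old wild type when young. *K06G5.1* stood at 273, 226 and 206 TPM in old wild type and at 113, 211 and 160.4 TPM in young sams1, and rose to 602, 919 and 684 TPM in old sams1 (log2 fold change 1.94, SE 0.34, adjusted p = 0.0065, edgeR), a call that held only without D1 replicate 1. *C01B10.6* had means of 183 TPM in old wild type and 95.7 and 236 TPM in young and old sams1, with an adjusted p of 0.033.

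Across the 138 members the rank correlation of the wild-type and the sams1 ratio was 0.26, over genes that share libraries and were chosen for a high wild-type ratio. Over all 155 members, the 17 with under 10 counts at wild-type D7 included, the sams1 ratio was at least 4 in 66 and below 1 in 14. The shares of all genes were not counted. The median sams1 ratio was 3.38 for the 155 members and 1.40 over all genes at 5 TPM or more. Beside these changes, marker genes of several tissues moved with age in the same libraries. Of the 25 body wall muscle genes 15 were called lower (median log2 fold change -1.87), as were 12 of 13 tested sperm genes (-3.55), and DESeq2 called 23 and 13 of them lower. In the cuticle list *col-19* and *col-12* of 12 genes were called lower (median -4.01), while DESeq2 called 10 lower and 11 were lower at an unadjusted p under 0.05 by edgeR. In the intestine list *pho-1* of 17 was called lower (median -0.35), with 2 lower by DESeq2 and, at that unadjusted p, 5 lower and 1 higher. In the lists of germ line, oocyte, larval molt, pharynx, neuron and coelomocyte genes no gene was called by edgeR. At an unadjusted p under 0.05, 10 of 20 germ line genes (median 0.65) and 6 of 15 oocyte genes (median 1.65) were higher, and 9 of 10 molt genes (median -2.75) and 5 of 9 pharynx genes were lower, while none of 16 neuron genes passed. DESeq2 called 3 oocyte genes higher, 6 molt genes and 3 pharynx genes lower, and none in the germ line and neuron lists. Of the 2 embryo genes tested *cnd-1* was called higher. A part of these shifts in the members' values was not tested. Of 39 tested genes of a list of named stress and defence responders, 6 were called higher and none lower by edgeR. DESeq2 called 13 higher and 3 lower, and at an unadjusted p under 0.05 by edgeR 14 were higher and 6 lower. Their median log2 fold change was 0.39.

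Gene structure and place were set beside those of other sequence-named genes as a description, and a given number of reads makes a higher TPM in a shorter transcript. Coding members had a median transcript length of 659 bases and a median of 3 exons, against 1081 bases and 5 exons in the 2648 other coding genes with sequence-style symbols at 5 TPM or more. Chromosome V held 43 members (27.7%, against 18.02% of those other genes) and chromosome III held 11 (7.10%, against 18.4%). Chromosome II held 35, IV 28, I 20 and X 18. Within 10 kb of another member lay 30 members, in 13 pairs and the run of 4 *D1086* genes. Among these 14 groups, the *T26H5* pair was the only one with all its members called higher in the libraries labelled sams1. In 5 groups 1 member was called and in 8 none was. Of the 7 members called in these groups 4, *T26H5.10* among them, had under 10 counts in every D1 library labelled sams1 and so had to differ. In the *ZK1320* pair, on chromosome II, *ZK1320.2* stood at 120.0, 189 and 149 TPM in young and at 266, 274 and 220.4 TPM in old sams1 libraries (log2 fold change 0.49, SE 0.26, adjusted p = 0.211, edgeR), and *ZK1320.3* stood at 131, 179 and 133 TPM and at 370, 542 and 393 TPM (1.33, SE 0.27, adjusted p = 0.011). In the *C49G7* pair, on chromosome V, *C49G7.12* rose from 5.95, 6.78 and 7.79 TPM to 68.3, 93.5 and 69.4 TPM (log2 fold change 3.07, SE 0.25, adjusted p = 0.0010, edgeR), while *C49G7.7* went from 4.66, 8.71 and 3.94 TPM to 20.9, 28.5 and 18.1 TPM with an adjusted p of 0.023. These pairs too were chosen after their values were seen. Exon bases were shared with another gene in 43 members, whose reads could be ambiguous. Some of these, *T12D8.5* and *C41G11.1* among them, had whole expected counts in all 12 libraries. *C09F9.2* shares no exon bases and had expected counts that were not whole.

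The thresholds cut through a continuous range. At the ratio, *D1086.19* (4.00), *E04D5.4* (4.01) and *Y58A7A.5* (4.08) lay just inside, and *T28A11.2* (3.99), *F13E9.11* (3.99) and *C49C3.9* (3.95) just outside. At the level, *R11.4* (5.03 TPM), *C09F9.2* (5.15 TPM) and *E04D5.4* (5.39 TPM) were just inside and *Y73B3A.31* (4.91 TPM), *R03H10.6* (4.90 TPM) and *M03A1.8* (4.89 TPM) just outside. At the limit for genes high in the libraries labelled sams1, *Y51H4A.25* was left out with a smaller ratio of 8.22 and *C01G10.4* was kept with 7.91.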

How the data were processed

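Per the labels, reads were processed by the authors with Trimmomatic 0.39, STAR 2.710b and RSEM 1.3.3. For each gene and library, the deposited files hold RSEM's expected count beside its TPM and FPKM. TPM was used for levels and rounded expected counts for tests, and FPKM was not used. The study calls its 3 replicates per group independent biological ones, and its text does not mention separate cultures. The p-values measure the spread between these libraries. The members and lists were chosen with earlier results of these data known.

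The 6 libraries labelled sams1 were fitted with edgeR 4.0.16 in R 4.3.3 (quasi-likelihood F test, TMM factors, filterByExpr defaults, 4 residual degrees of freedom), with Benjamini-Hochberg adjustment over 13745 genes. The test gives no SE, so each SE printed is the absolute log2 fold change divided by the square root of the F statistic. The program was tested on simulated data. Alternatives used DESeq2 1.42.0, limma 3.58.1, other scalings, filters and thresholds, all 12 libraries, a replicate block and each library left out. Members named are the 10 with the highest wild-type D7 level, the 10 with the largest ratio, up to 10 called in each direction, those next to a threshold and those in the 3 largest runs of neighbours. Where further genes are named, this was after their values were seen, or because the study's tables annotate them. Gene places, lengths and overlaps are from Ensembl release 115 (WBcel235), which holds 46917 of the identifiers. Neighbours lie within 10 kb. The symbol *C18C4.12* belongs to a pair of identifiers, counted as 2 members. Protein families and promoters were not analysed here. The 12 marker and responder lists were written from general knowledge.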

Additional observations from a re-analysis of the deposited data

Results flagged for a closer look

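The levels of *D1086.10* and *Y51H7C.1* had the opposite order with age in wild type and in the libraries labelled sams1. In both genes all wild-type D7 libraries lay above the D1 libraries and all D7 libraries labelled sams1 lay below the D1 libraries of that label. The log2 ratio of mean TPM + 0.5, D7 over D1, was -1.75 for *D1086.10* and -4.43 for *Y51H7C.1* in the libraries labelled sams1. The difference between the genotypes was not tested, since wild-type values chose the members.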

How the results depend on the processing

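The number of members was 155 as reported, 99 with a ratio of at least 6 and 512 when TPM was scaled on body wall muscle genes, 154 of the 512 being shared. Other settings gave 117 to 227. Members called higher with age in the libraries labelled sams1 numbered 42 as reported and 109 when scaled on muscle genes (median log2 fold change 3.35), 68 with DESeq2 and 70 at an adjusted p under 0.05 with any fold. The share of all genes called higher was 1.67% as reported and 57.4%, 2.88% and 6.10% in these. Members called higher ranged from 8 to 65 when 1 library was left out, beside 0.204% to 8.95% of all genes. Members called lower were 1 as reported, 2 with DESeq2, 2 at an adjusted p under 0.05, and 0 to 4 when 1 library was left out. With the replicate block edgeR called 0 members higher and 0 lower, and 0 genes of all tested, while 83 members were higher and 1 lower at an unadjusted p under 0.05. The libraries share only a number: deviations of same-numbered libraries correlated at -0.34, -0.03 and 0.07. *D1086.7* turned direction, to 0.16, under muscle scaling. The members' median lay above that of all genes by 1.59 to 1.79 on the log2 scale under every alternative run. Of 432 values of 24 named members under alternatives, 339 kept their direction and their side of the threshold, 62 lost the call and 30 gained it. Low counts limit the non-coding members and those at 0 in young animals.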
